A study of Mus musculus with 6 samples.

Results

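The caveolin and cavin genes described here are Cav1, Cav2, Cavin1, Cavin2, Cavin3, Ehd2 and Pacsin2, which encode proteins that build and hold caveolae. They were taken by gene symbol, a rule that uses no measured value, and are 7 of the 19057 genes named on the array. Together they have 16 of its 45281 probes; older names are Ptrf for Cavin1, Sdpr for Cavin2 and Prkcdbp for Cavin3. The arrays were Illumina bead arrays hybridised with RNA enriched for endothelium, taken from the carotids of wild-type mice of strain C57Bl/6J, 3 arrays for vessels under stable flow and 3 for vessels under disturbed flow. All samples were wild type and no allele, agent or time point is named, while ages, the way disturbed flow was produced and whether each sample was 1 animal or a pool are not stated in the labels. P-values therefore measure only the spread between these arrays, which may be technical.

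The group of every array is the one in its sample description. The deposited series matrix goes against it: in 6 of 6 cases a matrix column has the rank order over probes of an array described under the other group (rank correlation 1.000). Neither source settles which is right, so each sign below, always disturbed flow minus stable flow, would turn if the matrix columns are named correctly. Each group lay on 1 slide of its own, so a slide effect and a flow effect cannot be told apart. Stable flow replicate 2 stood apart, with 9.74% of probes above background (a detection p under 0.05) against 19.6% to 35.0% on the other 5 arrays. Its signals also had the narrowest spread, with an interquartile range of 0.14 in log2 over the tested probes, and quantile normalization, which gives every array the same distribution, stretched them.

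Caveolae are flask-shaped pits of the plasma membrane, dense in endothelium, that buffer membrane tension and hold signalling proteins such as the endothelial nitric oxide synthase. Caveolins insert into the membrane and oligomerise into the coat, and cavins form the outer coat that stabilises it. Ehd2 is an ATPase that sits at the neck and anchors caveolae at the surface, and Pacsin2 is an F-BAR protein that helps to shape them.

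Cav2 and Cav1 are neighbours on chromosome 6, with 0 other genes between them in the RefSeq gene table. Their upstream windows are shown because the pair shares this locus and encodes the 2 caveolins of the coat. Each line gives the 250 bases before a RefSeq start (GRCm38.p6, plus strand, 5′ to 3′), chr6:17280935-17281184 for Cav2 and chr6:17306085-17306334 for Cav1. Capitals mark matches, on either strand, to GGGCGG (GC box), CACCC (bound by Krüppel-like factors), CCAAT and TGACTCA (AP-1).
Cav2: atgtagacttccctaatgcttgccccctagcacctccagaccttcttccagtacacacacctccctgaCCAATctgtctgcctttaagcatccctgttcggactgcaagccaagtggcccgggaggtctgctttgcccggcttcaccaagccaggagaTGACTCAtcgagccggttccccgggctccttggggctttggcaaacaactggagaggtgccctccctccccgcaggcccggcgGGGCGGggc
Cav1: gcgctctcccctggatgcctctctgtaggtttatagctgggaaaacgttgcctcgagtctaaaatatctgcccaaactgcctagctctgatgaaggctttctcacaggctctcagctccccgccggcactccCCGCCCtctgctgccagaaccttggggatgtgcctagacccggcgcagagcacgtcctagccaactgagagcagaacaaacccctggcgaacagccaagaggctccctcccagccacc
The Cav2 window held 1 GC box, 1 CCAAT and 1 TGACTCA, and the Cav1 window held 1 GC box, with 0 CACCC matches in either and 0 overlapping matches. A second RefSeq start of Cav1, with the window chr6:17307390-17307639 (not printed), had 0 matches to any of these motifs. Over 32851 such windows of the RefSeq table, with 1 chromosome left out, 32.7% held GGGCGG, 52.0% CACCC, 33.8% CCAAT and 4.5% TGACTCA. A match describes letters only. Windows were found for 6 of the 7 genes, Cavin3 being the one without.

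None of the 7 genes was found to differ between disturbed and stable flow. Of the 16 member probes, 12 were above background on 3 or more arrays and were tested, and limma called 0 of the 12 at an adjusted p under 0.05. Over all 12546 tested probes limma called 0, or 0%. At an unadjusted p under 0.05 there were 0 of the 12 member probes, against 2.69% of all tested probes (338), and the described groups did not overlap for 0 of the 12, against 9.68% of all tested probes. Each gene is represented by its tested probe of highest mean log2 intensity (the stand-in probe). By these probes 5 genes had positive and 2 had negative differences, beside 7207 positive and 5339 negative over all tested probes. The other tested probes of Cav2, Cavin1 and Cavin3 had the opposite sign to the stand-in probe. The median over the 7 stand-in probes was 0.15, beside 0.098 over all tested probes. Without stable flow replicate 1 the member median was 0.81 (6 positive, 1 negative), beside 0.22 over all tested probes. Without stable flow replicate 2 it was -0.08 (3 positive, 4 negative), beside -0.01 over all tested probes. In bulk RNA, fewer cells of a type and less RNA per cell cannot be told apart.

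**Figure D1:**
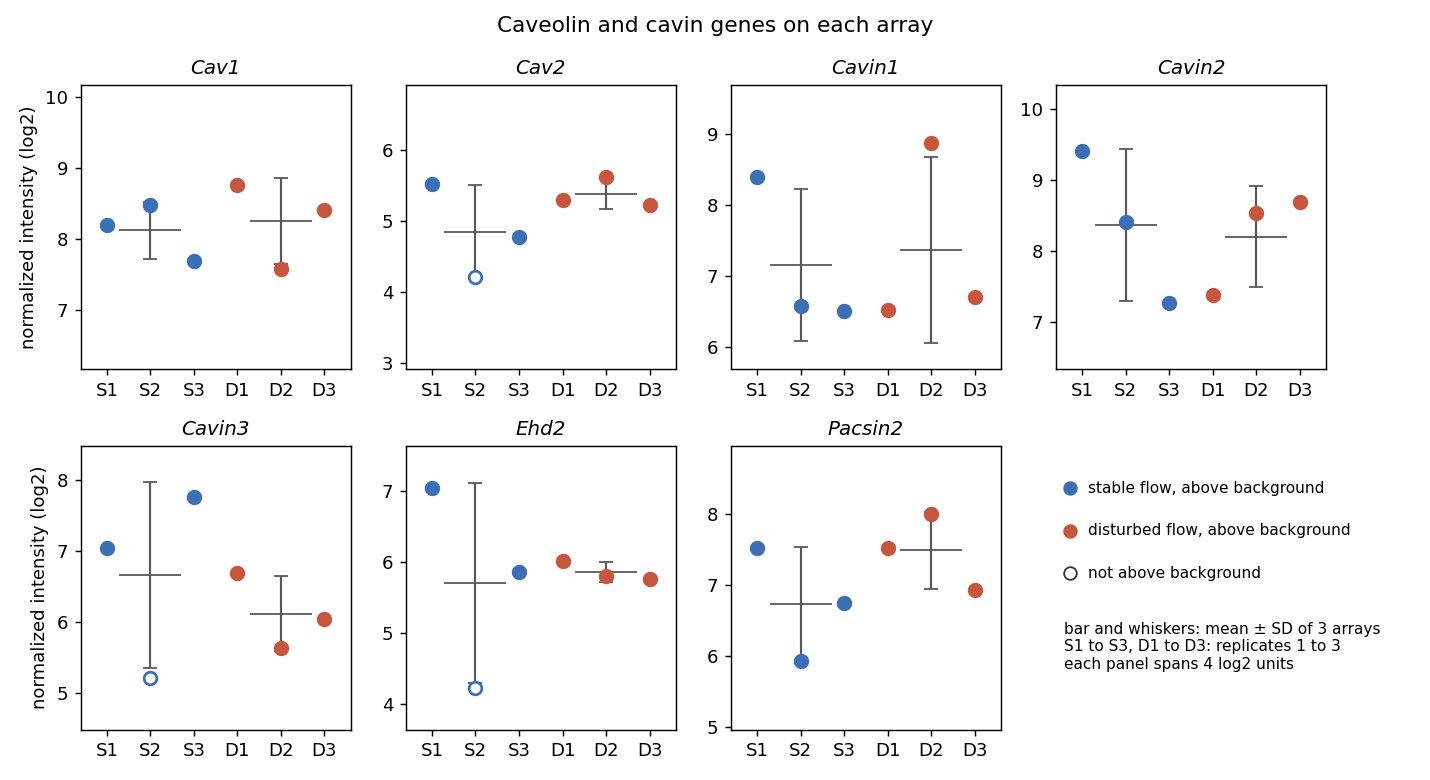
Normalized log2 intensity (y axis) of the stand-in probe of each gene on the 6 arrays (x axis), with the mean and SD of each group and open symbols where the probe was not above background. The groups overlap in all 7 panels, and the 3 open symbols, for Cav2, Cavin3 and Ehd2, all belong to stable flow replicate 2.

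Cav1 encodes caveolin-1, the caveolin without which endothelial caveolae do not form. Its 1 probe was above background on 6 of 6 arrays. Before normalization its signal was 569, 117 and 308 under stable flow and 694, 263 and 251 under disturbed flow, in the order of replicates 1 to 3 used throughout. The lowest of these 6 signals was on stable flow replicate 2, the array of narrowest spread. After normalization the log2 intensity was 8.20, 8.49 and 7.69 under stable flow and 8.77, 7.58 and 8.42 under disturbed flow, so that the same array held the second highest value and the groups overlapped. The means were 8.13 ± 0.40 and 8.26 ± 0.61 (SD, n = 3 each), a difference of 0.13 (SE 0.43, limma adjusted p = 0.955). The 95% confidence interval, -0.88 to 1.14 in log2, spans folds from 0.542 to 2.21. The value depended on the scaling: it was 1.00 after scaling to a common 75th percentile, -0.11 after centring on endothelial markers, and -0.13 to 0.47 when single arrays were left out.

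Cav2 encodes caveolin-2, which joins caveolin-1 in hetero-oligomers and needs it to leave the Golgi. Its brighter probe (ILMN_2639018) had signals of 179, 81.7 and 110 under stable flow and 115, 103 and 88.8 under disturbed flow. It was above background on 2 stable flow arrays, not on replicate 2, and on 3 disturbed flow arrays. The normalized log2 values were 5.52, 4.21 and 4.77 against 5.29, 5.62 and 5.22. Stable flow replicate 1 lay within the range of the disturbed flow arrays, and the other 2 stable flow arrays lay below them. The difference was 0.54 (SE 0.42, limma adjusted p = 0.890; interval -0.45 to 1.52), and 0.23 without stable flow replicate 2.

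The other Cav2 probe (ILMN_2689037) had the opposite sign. Its log2 values were 5.19, 5.61 and 4.70 under stable flow and 4.87, 4.72 and 4.41 under disturbed flow, a difference of -0.50 (SE 0.37, limma adjusted p = 0.890). It was above background on 1 and 2 arrays. Stable flow replicate 2 was the lowest array by the first probe and the highest by the second, although neither probe was above background there. No direction for Cav2 can be read from these probes.

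Cavin1 encodes the cavin that caveola formation requires, also known as polymerase I and transcript release factor. Both of its probes were above background on 6 of 6 arrays. The brighter probe (ILMN_2498471) had signals of 622, 98.8 and 172 under stable flow and 193, 603 and 111 under disturbed flow. After normalization these became 8.39, 6.57 and 6.51 against 6.52, 8.87 and 6.70, with 1 high array in each group and the other 4 within a narrow band. The means were 7.16 ± 1.07 and 7.36 ± 1.31 (SD, n = 3 each), and the difference was 0.21 (SE 0.78, limma adjusted p = 0.960; interval -1.62 to 2.04). This was the largest SE among the 12 tested member probes. Leaving out the high array of a group moved the value to 0.82 (stable flow replicate 1) or -0.55 (disturbed flow replicate 2).

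The second Cavin1 probe (ILMN_1243992) ordered the arrays differently. Its log2 values were 7.06, 6.47 and 8.24 under stable flow and 7.37, 6.86 and 7.31 under disturbed flow. Its highest array was stable flow replicate 3, the lowest by the first probe. The difference was -0.08 (SE 0.50, limma adjusted p = 0.979; interval -1.25 to 1.10). The groups overlapped by either probe.

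Cavin2, which encodes a cavin that is abundant in endothelium and helps to bend the membrane, has 1 probe, above background on 6 of 6 arrays. Its signal was 1050, 115 and 244 under stable flow and 312, 494 and 308 under disturbed flow. The normalized log2 values were 9.41, 8.40 and 7.26 against 7.38, 8.53 and 8.69. The highest and the lowest array both belonged to stable flow. The means were 8.36 ± 1.07 and 8.20 ± 0.71 (SD, n = 3 each), a difference of -0.15 (SE 0.63, limma adjusted p = 0.963; interval -1.62 to 1.31). Scaling to a common 75th percentile turned it to 0.90, and the values without single arrays ran from -0.70 to 0.37.

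Cavin3 encodes a cavin that binds protein kinase C delta, and it had the most negative difference among the 7 genes. Its brighter probe (ILMN_2956942) had signals of 343, 94.2 and 321 under stable flow and 210, 103 and 97.9 under disturbed flow. On the normalized log2 scale these were 7.04, 5.21 and 7.76 against 6.69, 5.63 and 6.05. Stable flow replicates 1 and 3 lay above all disturbed flow arrays, and replicate 2, where the probe was not above background, lay below them. The difference was -0.55 (SE 0.68, limma adjusted p = 0.895; interval -2.14 to 1.03). Without stable flow replicate 2 it was -1.28 (unadjusted p = 0.0286, limma adjusted p = 0.934), and with array weights, which give that array 0.28, it was -1.22 (limma adjusted p = 0.775). Without stable flow replicate 3 it was -0.01.

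The other Cavin3 probe (ILMN_1243602) did not show this difference. It was above background on 1 stable flow and 2 disturbed flow arrays and had log2 values of 4.86, 4.25 and 4.51 against 5.05, 4.81 and 4.47. On stable flow replicate 3, where the brighter probe was highest, it was not above background, so it cannot decide on that probe's difference. Its difference was 0.24 (SE 0.35, limma adjusted p = 0.904), 0.09 without stable flow replicate 2 and 0.24 with array weights. On the second probe the groups overlapped with or without that array.

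**Figure D2:**
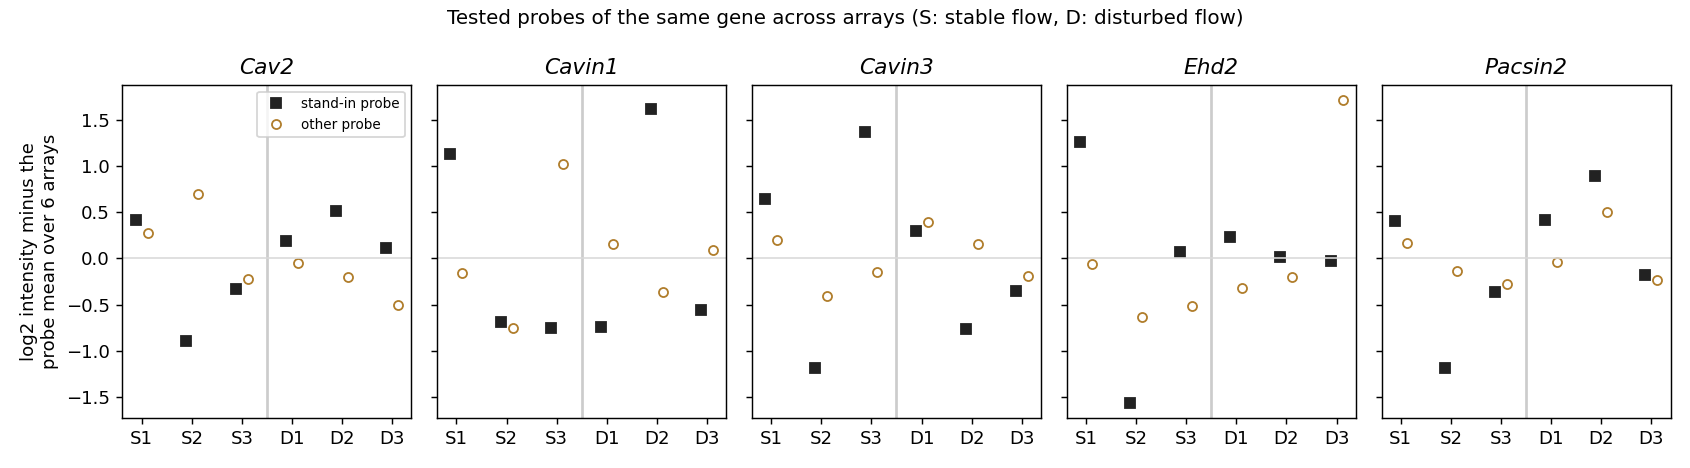
Log2 intensity of each tested probe minus its own mean over the 6 arrays (y axis) for the 5 genes with more than 1 tested probe, by array (x axis; S1 to S3 stable flow, D1 to D3 disturbed flow). The probes of Cav2 part on S2, those of Cavin1 on S3 and D2, those of Cavin3 on S3 and those of Ehd2 on S1 and D3. The Pacsin2 probes lie closer together, with their widest gap on S2.

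Ehd2, of the caveolar neck, has 5 probes, of which 2 passed the filter. The brighter (ILMN_2557496) had signals of 345, 82.9 and 138 under stable flow and 153, 109 and 94.0 under disturbed flow. Its normalized log2 values were 7.05, 4.23 and 5.86 against 6.02, 5.80 and 5.76. The stable flow arrays enclosed all 3 disturbed flow arrays, with SDs of 1.41 and 0.14. The difference was 0.15 (SE 0.68, limma adjusted p = 0.968; interval -1.44 to 1.73). It turned to -0.59 without stable flow replicate 2, where the probe was not above background, and was 0.81 without stable flow replicate 1.

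The second Ehd2 probe (ILMN_2810645) rested on 1 array. Its log2 values were 5.56, 4.99 and 5.11 under stable flow and 5.30, 5.42 and 7.33 under disturbed flow. The difference was 0.80 (SE 0.59, limma adjusted p = 0.890), and 0.14 without disturbed flow replicate 3. The 3 remaining Ehd2 probes were above background on 2, 1 and 0 of the 6 arrays and were not tested.

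Pacsin2, whose F-BAR protein senses and bends membranes, had the largest positive difference by the stand-in probes. That probe (ILMN_2853342) was above background on 6 of 6 arrays, with signals of 423, 96.6 and 190 under stable flow and 341, 347 and 118 under disturbed flow. The normalized log2 values were 7.52, 5.93 and 6.75 against 7.53, 8.0 and 6.93. Stable flow replicate 1 lay level with disturbed flow replicate 1, and the other 2 stable flow arrays lay below all disturbed flow arrays. The means were 6.74 ± 0.80 and 7.49 ± 0.54 (SD, n = 3 each), a difference of 0.75 (SE 0.51, limma adjusted p = 0.890; interval -0.44 to 1.94). It kept its sign when any 1 array was left out, at 0.35 without stable flow replicate 2 and at 1.15 without stable flow replicate 1, and did not pass the test in any of these fits.

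The second tested Pacsin2 probe (ILMN_2712697) gave 0.16 (SE 0.35, limma adjusted p = 0.937). It was above background on 1 and 2 arrays, with log2 values of 4.83, 4.53 and 4.39 against 4.63, 5.17 and 4.43. Both Pacsin2 probes were highest on disturbed flow replicate 2. The third probe was above background on 0 of 6 arrays and was not tested.

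**Figure D3:**
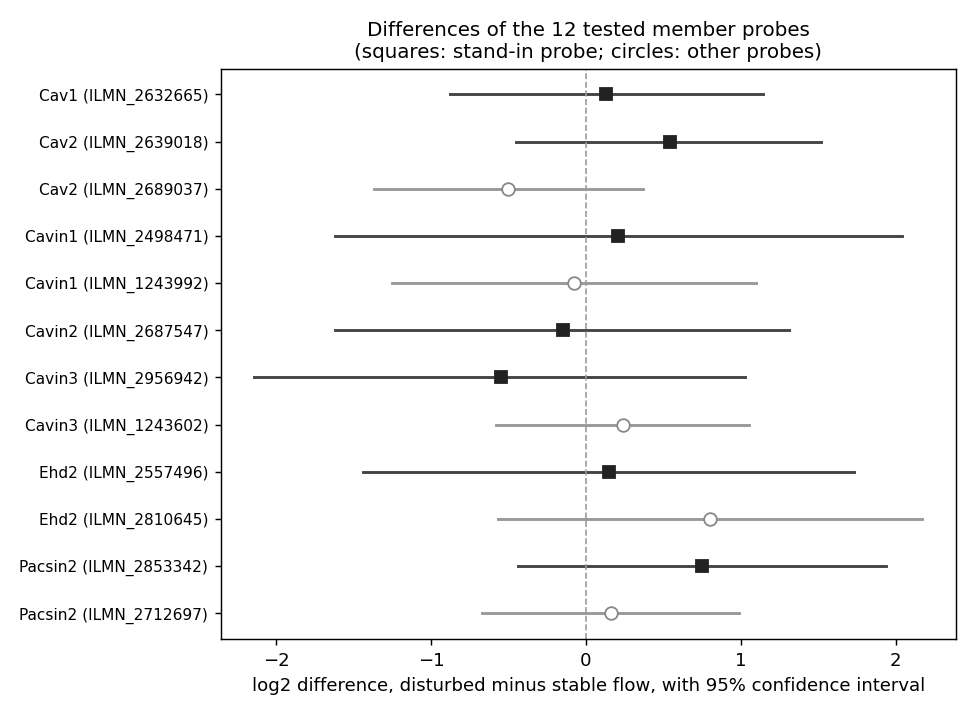
Log2 difference, disturbed minus stable flow, of the 12 tested member probes (x axis) with its 95% confidence interval from limma; squares are stand-in probes and circles other probes of the same gene (y axis). All 12 intervals include 0, and the probes of Cav2, of Cavin1 and of Cavin3 fall on opposite sides of it.

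The mean profile of the members did not separate the flow groups. The mean of the 7 stand-in probes, each centred on its own mean, was 0.71, -0.73 and -0.22 under stable flow and 0.01, 0.27 and -0.05 under disturbed flow. The highest and the lowest array of this profile were thus both described as stable flow. Stable flow replicate 2 held the lowest value of 4 of the 7 genes and was the only array on which fewer than 7 stand-in probes were above background, namely 4. Cav1 was lowest on disturbed flow replicate 2, and Cavin1 and Cavin2 were lowest on stable flow replicate 3.

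The endothelial markers had their lowest level on the same array as the members. Of 17 such markers 16 were tested, with 10 positive and 6 negative differences, 0 called and a median of 0.09, which was -0.18 without stable flow replicate 2 and 0.77 when arrays shared a 75th percentile. Their mean log2 intensity was 7.70, 6.53 and 7.37 on the stable flow arrays and 7.29, 7.59 and 7.43 on the disturbed flow arrays. Kdr, a defining endothelial receptor gene, was above background on 0 arrays. Centring every array on these markers shifts the differences of all probes by the same amount. The low marker level of stable flow replicate 2 enters that shift, and the signs after centring follow from it. The median over all tested probes moved from 0.098 to -0.14. There were then 2 positive and 5 negative member differences, with a median of -0.09. The largest of them were then -0.79 for Cavin3 and 0.52 for Pacsin2, and limma called 0 probes.

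Markers of other cells of the vessel and of blood were measured beside the members, and their part in the member values was not tested. Of 11 smooth muscle markers 6 were tested, with summed normalized intensities of 403 to 541 under stable flow and 355 to 731 under disturbed flow, and Tagln and Lmod1 were above background on 0 arrays. Of 10 fibroblast and adventitia markers 8 were tested, with sums of 224 to 1470 and 465 to 913. Adipocytes, which are rich in caveolae, had 2 of 8 markers tested, with sums of 87.8 to 257 and 166 to 260, while Adipoq, Plin1, Cidec and Lep were above background on 0 arrays. Of 9 red cell and platelet markers 5 were tested, with sums of 2720 to 3300 under stable flow and 821 to 2570 under disturbed flow. Their median difference was -0.75, but 0.06 with 4 of 5 positive after scaling to a common 75th percentile. The groups did not overlap for 1 of the 5, against 9.68% of all tested probes. Ppbp and Itga2b were above background on 0 arrays. Macrophage and lymphocyte lists had 1 tested gene each, and that of macrophages ranged from 20.4 to 60.3 and from 27.8 to 257, with Fcgr1, Mrc1 and Itgam above background on 0 arrays. The lymphocyte gene ranged from 23.7 to 71.5 and from 43.5 to 61.6, with Cd3e, Cd3g and Cd79b above background on 0 arrays. Skeletal muscle had 0 of 8 markers tested, and 7 of them were above background on 0 arrays.

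Other genes of caveolae gave no call either. Of 9 further coat and neck genes 4 were tested, with 1 positive and 3 negative differences, 0 called and a median of -0.29. That median was -0.60 with cyclic loess, and it turned to 0.09 and 0.21 without stable flow replicates 2 and 3 and to 0.28 with the matrix columns as named. Cav3 and Cavin4, the muscle forms of caveolin and cavin, were above background on 0 arrays. Within this list Ehd1, an endosomal relative of Ehd2, differed by 1.80 (SE 0.99, limma adjusted p = 0.890). It was above background on 2 stable flow and 2 disturbed flow arrays, with SDs of 0.36 and 2.19. Dnm2, the dynamin that cuts caveolae and coated pits from the membrane, differed by -0.75 (SE 0.87), and Ehd4 by -0.56 (SE 0.72), with -0.15 for its other tested probe.

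Of 19 receptors, channels and enzymes that reside in caveolae 13 were tested, with 8 positive and 5 negative differences, 0 called and a median of 0.04. It was 0.43 after scaling to a common 75th percentile, -0.19 after centring on endothelial markers and 0.13 to 0.27 when single arrays were left out. Acvrl1, the gene of smallest p in this list, differed by 1.29 (SE 0.46, limma unadjusted p = 0.0244, adjusted p = 0.890). Plvap, which encodes the protein of the diaphragm across the caveolar neck, had log2 means of 6.57 ± 0.86 under stable flow and 8.20 ± 1.40 under disturbed flow (SD, n = 3 each). Its difference was 1.64 (SE 0.76, limma adjusted p = 0.890). Acvrl1 and Plvap were each above background on 2 stable flow and 3 disturbed flow arrays. Of 16 genes of clathrin coats, flotillin rafts and other endocytic routes 11 were tested, with 6 positive and 5 negative differences and a median of 0.25. That median was 0.01 after centring on endothelial markers, 0.05 without disturbed flow replicate 1, 0.44 without stable flow replicate 3 and -0.16 with the matrix columns as named. Flot2, a flotillin of a second kind of membrane raft, differed by 1.44 (SE 0.87, limma adjusted p = 0.890), and its other probe gave 1.43. The stand-in probe of Flot2 was above background on 2 stable flow and 3 disturbed flow arrays. Of 6 genes that turn over caveolar proteins 5 were tested, with 4 positive and 1 negative difference and a median of 0.35. It turned to -0.06 without stable flow replicate 2, with 2 positive and 3 negative values, and to -0.27 with the matrix columns as named, and was 0.11 with cyclic loess. Ubxn6, a partner of the Vcp ATPase in sorting ubiquitylated caveolin-1, differed by -0.61 (SE 0.35), with 0.30 and 0.02 for its other probes. Of all these lists 0 genes passed the test.

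The genes whose pattern was most like the mean of the members were Sumf1, Snd1, Casp9, Cgrrf1 and Srf. Likeness was the Pearson correlation over the 6 arrays with the mean of the 7 centred member values, and it ran from 0.975 for Srf to 0.994 for Sumf1. The 6 points share their arrays and normalization, and 182 of 6973 other genes had a correlation over 0.9, so these values are a description only. Srf, for example, had log2 values of 8.97, 4.51 and 6.78 under stable flow and 6.73, 7.40 and 6.95 under disturbed flow, highest on stable flow replicate 1 and lowest on stable flow replicate 2, as was the member mean. The differences of the 5 genes between flow groups were 0.04 to 0.27. Not every member follows the member mean itself. The centred Cav1 values were 0.003, 0.30 and -0.50 under stable flow and 0.58, -0.61 and 0.23 under disturbed flow.

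**Figure D4:**
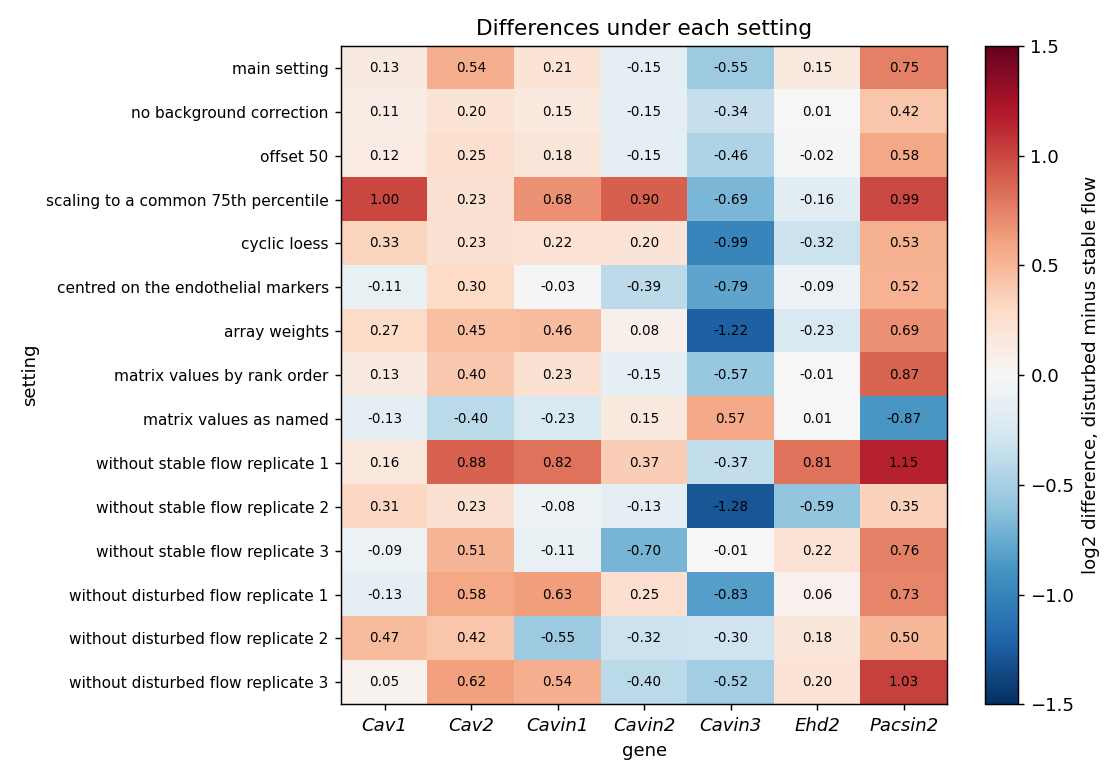
Log2 difference, disturbed minus stable flow, of the stand-in probe of each gene (x axis) under each setting (y axis), with the value printed and shown by colour. Cav2 and Pacsin2 are positive and Cavin3 is negative in every row shown but that of the matrix columns as named, and Cav1, Cavin1, Cavin2 and Ehd2 change sign among the rows.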

How the data were processed

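Signals of all 6 arrays came from the deposited table of intensity values, 1 per probe and array with no value below 0, and from the detection p-values deposited beside them. Per the submitters' processing notes the authors used GenomeStudio 2011.1, with settings that no label states. The authors' series matrix, with intensity values of unstated processing, served as an alternative.

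Intensities were background-corrected from the detection p-values, quantile-normalized and log2-transformed by neqc (offset 16) in limma 3.58.1 (R 4.3.3). Tested probes had a detection p under 0.05 on at least 3 arrays. Groups were compared with lmFit and eBayes, two-sided, adjusted by Benjamini-Hochberg over 12546 probes at 0.05, with no covariate. The fit was tried on simulated data with noise of the same spread on every array, which these arrays do not have. That trial therefore does not vouch for the fit on these data. Precision is limited by the number of arrays, with a median SE of 0.45 for a log2 difference. Genes were named from the platform annotation, with symbols brought up to date by gene identifier (34885 probes with 1 symbol, 18 with several, 10378 unnamed here). All member probes are named; the tested probe with the highest mean stands in for its gene. From each list at most the 3 genes of smallest p were eligible to be named, and 5 genes of like pattern. Members and lists were chosen with earlier results of these data known. Probe sequences are not used here, and no probe was placed on a genome. Alternatives covered background correction, scaling, filter, weights, block, source of values and each array left out.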

Additional observations from a re-analysis of the deposited data

How the results depend on the processing

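Over 17 alternatives limma called 0 probes and 0 member probes. One of them, which moves each matrix column to the array whose rank order it shares, was chosen after seeing the data. Between 92 (scaling to a common 75th percentile) and 2097 probes (no filter, 45281 probes) had an unadjusted p under 0.05, and 0 or 1 member probes. The member median of 0.15 was -0.08 to 0.81 when single arrays were left out (lowest without stable flow replicate 2, highest without stable flow replicate 1), and from -0.13 to 0.68 otherwise. The replicate block gave 0 calls and 329 probes at an unadjusted p under 0.05. Each block holds an array of either group, so the differences, with 0.15 as the member median, are the same by construction. The block used the replicate numbers only. Deviations of same-numbered arrays from the group means had correlations of -0.03, -0.07 and -0.08 over the tested probes. Other pairings of the arrays across the groups were not tested, so paired samples are not excluded.

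Of 121 gene values under alternatives 0 passed the test and 28 turned sign. The cause was not tested, except where the groups of the matrix columns are exchanged or centring shifts all probes alike. The matrix columns as named gave -0.13 for Cav1, -0.40 for Cav2, -0.23 for Cavin1, 0.15 for Cavin2, 0.57 for Cavin3 and -0.87 for Pacsin2, by their opposite group assignment, and by rank order -0.01 for Ehd2. With the 75th percentile made common, the values were 0.90 for Cavin2 and -0.16 for Ehd2; cyclic loess gave 0.20 and -0.32, array weights 0.08 and -0.23, and an offset of 50 gave -0.02 for Ehd2. Centring on endothelial markers gave -0.11 for Cav1, -0.03 for Cavin1 and -0.09 for Ehd2, by a shift common to all probes. Other probes gave -0.50 for Cav2, -0.08 for Cavin1 and 0.24 for Cavin3. With single arrays left out, Cav1 ran from -0.13 to 0.47, Cav2 from 0.23 to 0.88, Cavin1 from -0.55 to 0.82, Cavin2 from -0.70 to 0.37, Cavin3 from -1.28 to -0.01, Ehd2 from -0.59 to 0.81 and Pacsin2 from 0.35 to 1.15. Sizes of some differences moved with the background step, and the reason was not tested. Cav2 gave 0.25 at an offset of 50. With no background correction Cav2 gave 0.20, Cavin3 -0.34, Ehd2 0.01 and Pacsin2 0.42.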
